A study of Gallus gallus with 18 samples.

Results

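The liver response to a diet with 15% insect meal was read from 12 of the 18 arrays of a broiler feeding trial, 6 labelled HI15 and 6 labelled HI0. The arrays were chosen by these diet labels alone, and the quantity described is the difference HI15 minus HI0 in log2 signal for each of 18226 probe sets, of which 12300 carry 1 gene symbol and stand for 11528 genes. All birds were male Cobb 500 broilers, a fast-growing meat breed, kept 4 to a cage and fed freely to day 35. Birds of HI15 received 150 g, and birds of HI0 received 0 g, of partially defatted black soldier fly larvae (Hermetia illucens) meal per kg of diet. The meal displaced soybean extraction meal, soybean oil and wheat, and synthetic amino acids were added until each diet met the recommended digestible amino acids, so several ingredients differed between the groups at once. The 6 arrays of the intermediate diet, HI7.5 with 75 g per kg, entered the fit to estimate the spread and are set beside the main values where useful. The labels do not tie the arrays to cages or state that each came from a different bird among the 72, so the p-values measure only the spread between these samples.

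The liver of a chicken makes most of the fatty acids, cholesterol, bile acids and plasma proteins of the body, and it exports lipid in lipoproteins. It also breaks down surplus amino acids, and because birds excrete nitrogen as uric acid, the carbon and nitrogen of that pathway pass through purine synthesis. Insect meal brings chitin, a different fatty acid pattern and less of the isoflavones of soybean, so genes of lipid, nitrogen, foreign compound and defence metabolism are natural points of comparison.

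The signals of the arrays were closely correlated. Correlations between HI15 and HI0 arrays ran from 0.972 to 0.988 (median 0.983) and those within these diets from 0.972 to 0.987 (median 0.984). Albumin (ALB), the main plasma protein made by hepatocytes, lay at 14.46 to 14.54 (median 14.52) in HI0 and 14.45 to 14.51 (median 14.50) in HI15, close to the top of the scale at 15.08. The first principal component was taken over all 18 arrays and held 23.2% of their variance. Among the 12 arrays, HI0 replicate 5 (-29.5) and HI0 replicate 1 (-21.2) lay at one end of it and HI15 replicate 5 (20.5) at the other. HI7.5 replicate 3 lay further out, at 35.4.

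No gene passed the test. Of 18226 probe sets, 0 were called at an adjusted p of 0.05 (percent called 0), and the smallest adjusted p was 0.892. At an unadjusted p under 0.05, 245 probe sets (1.34%) were higher and 328 (1.80%) lower in HI15, 573 in all against 911.3 expected on average if nothing differed. Among named genes, 145 (1.26%) were higher and 172 (1.49%) lower. These percentages are the background against which counts of list members are read below, and every gene described is one whose difference did not pass adjustment. The 12 arrays separated completely for 7 genes with all HI15 values above all HI0 values (0.0607%) and for 4 genes with all HI15 values below (0.0347%). The number that would separate if nothing differed was not computed, so separation by itself marks no gene as changed.

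Differences were small for nearly all genes. Their median was 0.005 on the log2 scale, 5% of the genes lay below -0.20 and 5% above 0.19, and 3 of 11528 genes differed by more than 1 in either direction. The 95% interval of the difference lay wholly within 1.5-fold for 10771 genes (93.4%) and within 2-fold for 99.4%. The median SD between arrays of a diet was 0.20 in HI0 and 0.17 in HI15.

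The sign of a difference moved with the brightness of the gene. When the genes were divided into 4 equal parts by mean signal, the median difference was -0.06 in the dimmest part, -0.02 and 0.03 in the middle parts and 0.04 in the brightest, and the share of genes above 0 was 34.3, 43.7, 62.9 and 66.3%. Unadjusted p under 0.05 was reached by 28 higher and 97 lower genes in the dimmest part and by 47 higher and 13 lower genes in the brightest. After quantile normalization the medians were -0.01, 0.01, 0.01 and 0.00, and with the spread of each array as a covariate they were -0.01, 0.00, 0.01 and 0.00. The SD over probe sets was 1.77 to 1.92 on the HI0 arrays and 1.81 to 1.94 on the HI15 arrays. Counts above 0 in a list of bright genes are therefore to be read against 62.9 and 66.3%, the shares among all genes of like brightness, and medians of the main lists are given on both scales. The median of 26 of the 43 lists changed sign under at least 1 alternative setting, and that of 41 moved by over 1.5 times when some 1 array was left out, so a list median near 0 is a value and not a direction.

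**Figure D1:**
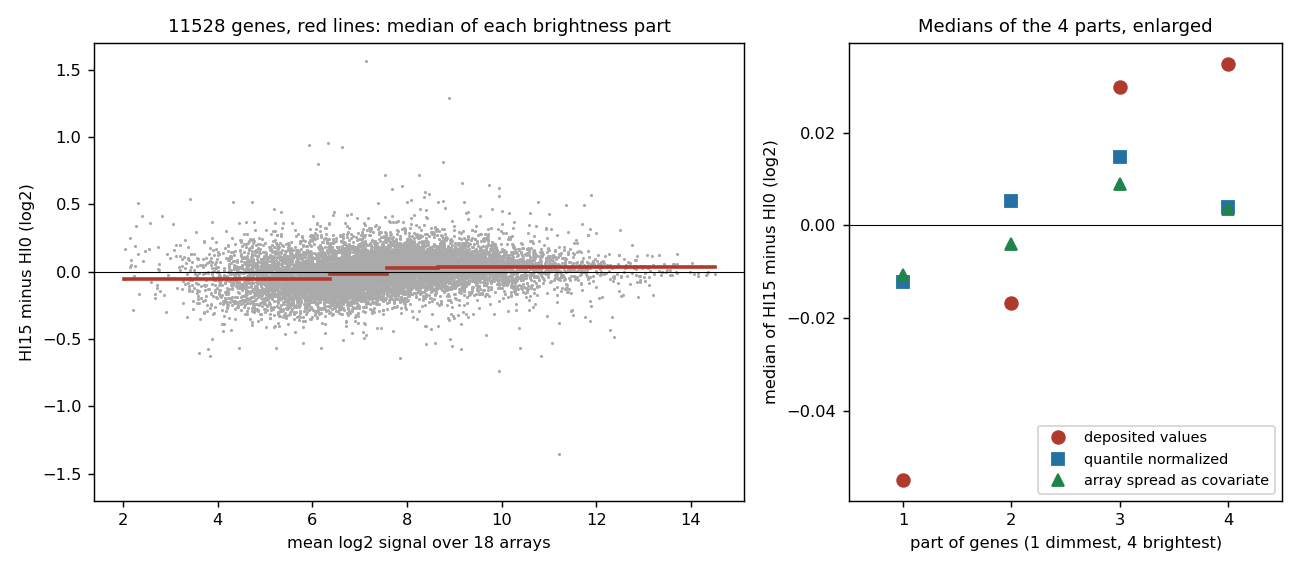
Left, the difference HI15 minus HI0 (log2) of each of 11528 genes (grey points) against its mean log2 signal over 18 arrays, with the median of each of 4 equal parts by brightness as a red line. Right, the same medians enlarged, for the deposited values (circles), after quantile normalization (squares) and with array spread as a covariate (triangles). The deposited medians climb from -0.06 to 0.04 from the dimmest to the brightest part, and the medians under both other settings lie nearer to 0.

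Among genes of at least median brightness, the smallest p-value of a higher gene belonged to TFRC, the transferrin receptor, which brings iron into cells. Its signal ran from 8.18 to 8.75 (median 8.51) in HI0 and from 8.65 to 9.52 (median 8.90) in HI15, a difference of 0.52 ± 0.14 (SE) or 1.44-fold (95% interval 0.22 to 0.82). All 6 HI15 arrays lay above the HI0 mean, 1 of them below and 1 level with the highest HI0 array. The dimmer of the 2 TFRC probe sets gave -0.13, so the direction rests on the brighter one. RIDA, a deaminase that clears reactive imines formed in amino acid metabolism, ran from 11.03 to 11.77 (median 11.54) in HI0 and 11.68 to 12.31 (median 12.06) in HI15, a difference of 0.49 ± 0.14 (SE) (95% interval 0.20 to 0.78). A single HI15 array, replicate 6, fell inside the HI0 range. KCNK7, a member of the potassium channel family with paired pore domains, lay within 9.40 to 9.58 (median 9.56) on all HI0 arrays and within 9.59 to 10.33 (median 9.95) on the HI15 arrays, which did not overlap (0.47 ± 0.14 (SE), 95% interval 0.18 to 0.75).

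The other higher genes with the smallest p-values in this brightness range came from unrelated processes. PAPLN, an extracellular matrix protein, ran from 6.93 to 7.39 (median 7.10) in HI0 to 6.99 to 8.86 (median 7.84) in HI15 and differed by 0.72 ± 0.23 (SE), or 1.64-fold. PCDH7, a protocadherin of cell contacts, differed by 0.72 ± 0.24 (SE) and its other probe set by 0.57. One HI0 array, replicate 1, read 9.09 for PCDH7, above every HI15 array, while the remaining HI0 arrays lay at or below 7.86. EDNRB2, an avian endothelin receptor, lay at 8.60 to 9.36 (median 9.12) in HI0 and 9.36 to 9.61 (median 9.50) in HI15, so that the groups met at a single shared value (0.39 ± 0.12 (SE)). BUB3, a spindle checkpoint protein, was higher by 0.33 and RPS6KA1, a ribosomal S6 kinase, by 0.30. TM4SF4, a tetraspan membrane protein, was higher by 0.27 and DDTL, a relative of D-dopachrome tautomerase, by 0.34. PARP1, which attaches ADP-ribose chains at DNA breaks, was higher by 0.28, with its other probe set at 0.12. Both BUB3 and PARP1 separated the diets completely.

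On the lower side, genes of cholesterol handling took several of the leading places and are described below with their pathway. Outside that pathway, the smallest p in the same brightness range belonged to P2RX2, an ATP-gated ion channel, at 8.10 to 8.58 (median 8.30) in HI0 and 7.77 to 8.16 (median 7.96) in HI15 (-0.33 ± 0.11 (SE), 95% interval -0.56 to -0.10). PPARD, a nuclear receptor for fatty acids, lay at 7.79 to 8.03 (median 7.86) in HI0 and 7.36 to 7.80 (median 7.66) in HI15, where the groups touched but barely overlapped (-0.26 ± 0.09 (SE), 95% interval -0.46 to -0.07). NUDT7, a peroxisomal coenzyme A diphosphatase, was at -0.44, with 4 of 6 HI15 arrays below the HI0 mean. PQLC2, a lysosomal carrier of cationic amino acids, stood at -0.43, CDKN2B, an inhibitor of the cell cycle kinases, at -0.40, SORL1, a sorting receptor of the LDL receptor family, at -0.29 and RILP, a lysosomal transport adaptor, at -0.25. For SORL1 and RILP all 6 HI15 arrays lay below the HI0 mean. The 7 genes with all HI15 arrays above all HI0 arrays were KCNK7, BUB3, PARP1, FADS6, HLF, MCTS1 and MOB2, the last chosen after its values were seen. Their differences ran from 0.17 (MOB2, a kinase regulator) to 0.47 (KCNK7). MCTS1, a factor of translation re-initiation, was at 0.21. The 4 genes with all HI15 arrays below were the microRNA genes MIRLET7F2 and MIR193A, METTL22, a methyltransferase whose other probe set gave 0.01, at -0.29, and RTFDC1, a factor at replication fork barriers, at -0.11 with an interval from -0.29 to 0.08.

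**Figure D2:**
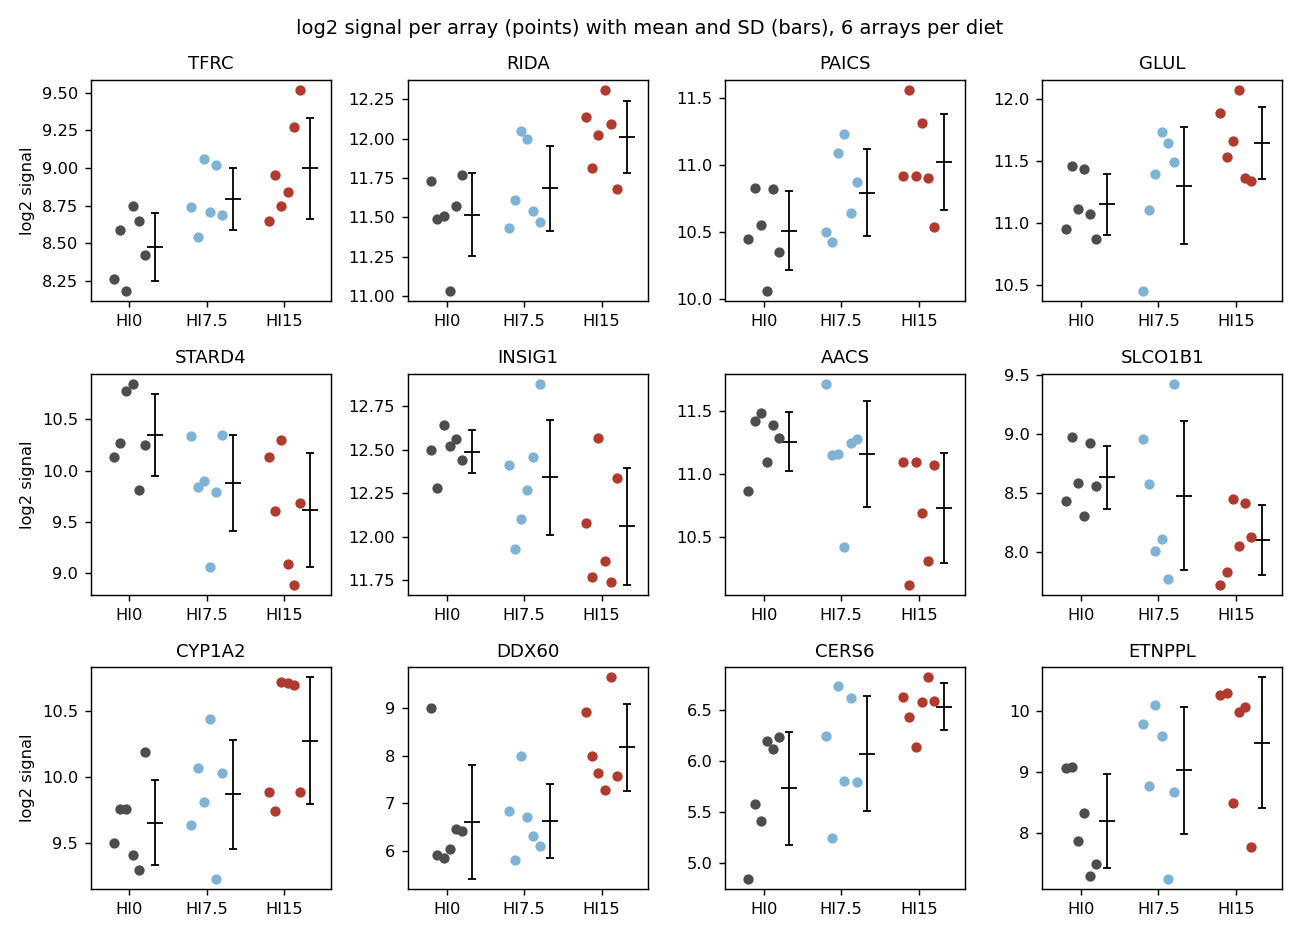
Each panel plots the log2 signal of 1 gene on the 6 arrays of each diet (points, HI0 dark, HI7.5 blue, HI15 red), with the mean and SD as a bar to the right of each group. TFRC, RIDA, PAICS and GLUL lie higher and STARD4, INSIG1, AACS and SLCO1B1 lower in HI15 with overlap between the diets, and HI0 replicate 1 stands at 9.01 for DDX60.

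Most measured cholesterol synthesis enzymes had a lower mean signal in HI15, while the other sterol genes had no common direction. Of 11 measured enzymes of the pathway (20 listed), 10 were below 0 and 1 above, with a median of -0.29 against 0.005 for all genes. Unadjusted p under 0.05 was reached by 3 lower enzymes (27.3%) and 1 higher enzyme (9.09%), against 1.49% and 1.26% of all genes. Lists were chosen with earlier results of these data known, so these shares describe the enzymes and do not test them. The median was -0.32 after quantile normalization and -0.27 with array spread as a covariate, whereas the brightest genes as a whole were shifted the other way. FDFT1, squalene synthase, ran from 10.44 to 11.63 (median 11.15) in HI0 and 9.34 to 11.32 (median 10.63) in HI15 and differed by -0.63 ± 0.27 (SE) (95% interval -1.18 to -0.07). The lowest HI15 array, replicate 5 at 9.34, lay far below the others, and without it the difference was -0.39. NSDHL, which removes a methyl carbon late in the pathway, lay at 10.12 to 10.91 (median 10.61) in HI0 and 9.82 to 10.66 (median 10.09) in HI15 (-0.42 ± 0.16 (SE), 95% interval -0.74 to -0.09). Its sterol partner MSMO1, a methyl oxidase, was at -0.34 ± 0.15 (SE) (95% interval -0.65 to -0.02).

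With 11 of 20 listed enzymes measured, part of the pathway was not read. The remaining measured enzymes were chosen for the text after their values were seen. HMGCS1, which makes HMG-CoA, differed by -0.34, SQLE, squalene epoxidase, by -0.29, HSD17B7, a late reductase, by -0.30 and CYP51A1, the lanosterol demethylase, by -0.22. MVD of the mevalonate branch was at -0.16, DHCR7, the last reductase, at -0.16 and LSS, which closes the sterol rings, at -0.14. Each of these 7 had an interval that included 0. The other probe set of MVD gave -0.05 and that of FDFT1 -0.40. Without HI15 replicate 5, HMGCS1 was at -0.18, SQLE at -0.19, CYP51A1 at -0.14 and MVD at -0.05. Without HI0 replicate 4, HMGCS1 was at -0.22 and DHCR7 at -0.10, without HI0 replicate 5 DHCR7 was at -0.27, and without HI0 replicate 6 LSS was at -0.09. The exception in direction was ACAT2, the thiolase that condenses acetyl-CoA at the entry of the pathway, at 9.59 to 10.11 (median 9.71) in HI0 and 9.63 to 10.42 (median 10.12) in HI15 (0.30 ± 0.13 (SE), 95% interval 0.02 to 0.58). AACS, a cytosolic ligase that returns acetoacetate to lipid synthesis, lay at 10.87 to 11.49 (median 11.34) in HI0 and 10.12 to 11.10 (median 10.88) in HI15, and all 6 HI15 arrays were below the HI0 mean (-0.53 ± 0.20 (SE), 95% interval -0.94 to -0.12).

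The enzyme values were uneven over the arrays. Relative to the HI0 mean, the median over the 11 enzymes was -0.75 on HI15 replicate 5, between -0.29 and -0.20 on replicates 1, 2, 4 and 6, and 0.08 on replicate 3. The HI0 arrays spread from -0.20 to 0.21. Thus 5 of 6 HI15 arrays lay below the lowest HI0 array and 1 lay inside the HI0 range. For HI15 replicate 1 the margin was very small, at -0.205 against -0.197 on HI0 replicate 5. Without HI15 replicate 5 the median over the enzymes was -0.18, and without replicate 3 it was -0.35. The same list of enzymes had a median of -0.15 in HI7.5, which is measured against the same HI0 arrays.

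Sensors and carriers of sterol did not share one direction. Of 8 measured genes that sense or control sterol, 4 were above and 4 below 0 (median -0.01). INSIG1, which holds the sterol sensor in the endoplasmic reticulum and is itself switched on when sterol is short, was lower, at 12.28 to 12.64 (median 12.51) in HI0 and 11.74 to 12.57 (median 11.97) in HI15 (-0.43 ± 0.15 (SE), 95% interval -0.75 to -0.11). INSIG2, its relative with the same role, was higher, at 9.88 to 10.60 (median 10.43) in HI0 and 10.47 to 10.97 (median 10.67) in HI15 (0.29 ± 0.12 (SE), 95% interval 0.03 to 0.54). All 6 HI15 arrays lay above the HI0 mean for INSIG2, and the lowest HI0 array, replicate 4 at 9.88, widened the gap. Without that array the difference was 0.19. SREBF2, the transcription factor that drives the enzymes, was at -0.15 and SCAP, its escort protein, at -0.21, both with intervals across 0. Without HI15 replicate 5 SREBF2 was at -0.08, and SCAP was at -0.32 without either HI0 replicate 5 or HI15 replicate 1. Of 11 genes of uptake and movement, 8 were above 0 (median 0.06, but -0.02 without HI0 replicate 5), and STARD4, a soluble carrier that moves sterol between membranes, was the clear exception. Its arrays ran from 9.81 to 10.85 (median 10.26) in HI0 and 8.88 to 10.30 (median 9.64) in HI15, a difference of -0.74 ± 0.25 (SE) or 0.601-fold (95% interval -1.25 to -0.22).

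**Figure D3:**
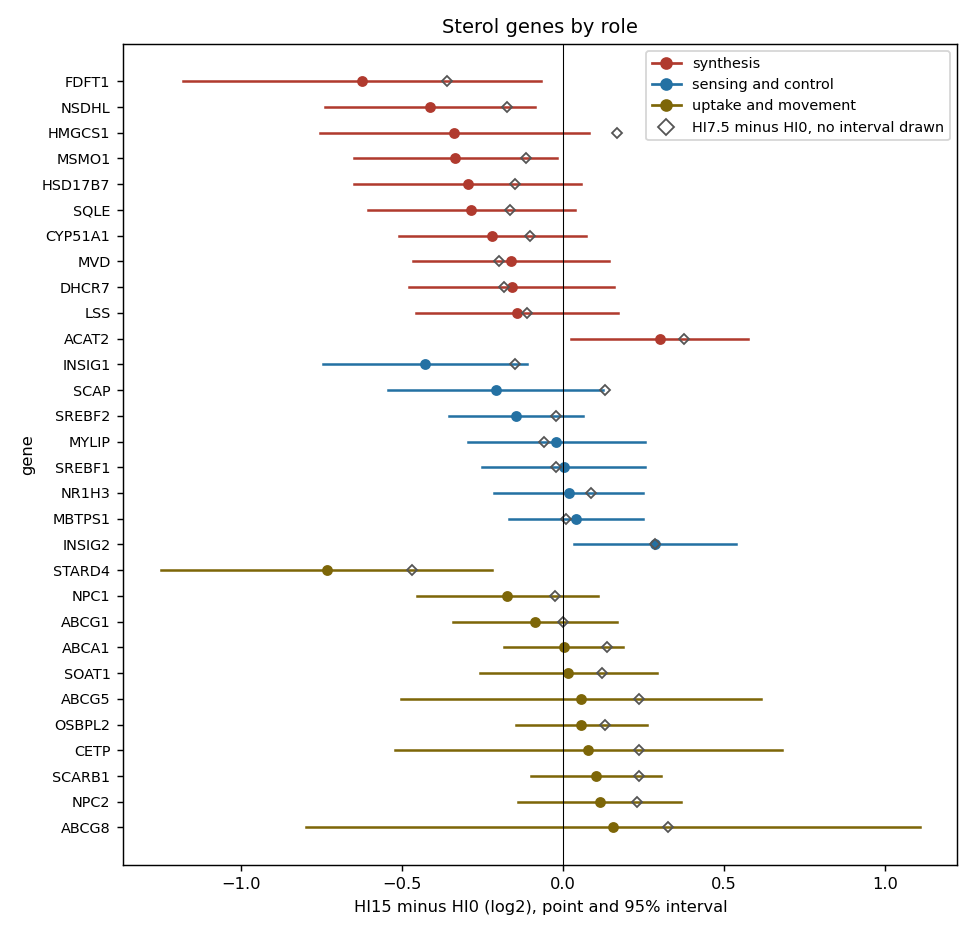
Differences HI15 minus HI0 (log2) of the 30 measured sterol genes, grouped by role, as points with 95% intervals; open diamonds give HI7.5 minus HI0 for the same genes without an interval. All synthesis enzymes but ACAT2 lie below 0, INSIG1 and INSIG2 lie on opposite sides, and STARD4 at -0.74 is the lowest gene of uptake and movement.

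Bile acid genes, which draw on the same cholesterol, had a median of 0.01 over 19 measured members, 0 of them higher and 1 lower at an unadjusted p under 0.05. That 1 was SLCO1B1, a hepatocyte uptake carrier for organic anions and bile acids, at 8.31 to 8.98 (median 8.58) in HI0 and 7.72 to 8.45 (median 8.09) in HI15. All 6 HI15 arrays lay below the HI0 mean, and the difference was -0.53 ± 0.22 (SE). CYP7A1, which starts bile acid synthesis, varied widely, at 10.02 to 11.71 (median 11.27) in HI0 and 9.45 to 12.03 (median 10.97) in HI15 (-0.33 ± 0.38 (SE), 95% interval -1.12 to 0.46).

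In the list of purine synthesis and uric acid genes, a few members had a higher mean signal in HI15. Of 24 measured genes, 17 were above 0 (70.8%, against 66.3% of all genes of like brightness). At an unadjusted p under 0.05, 4 were higher and 1 lower, or 16.7% and 4.17% of the list. Of the higher ones, 2 were among the 11 purine synthesis genes and 2 among the 13 genes listed under uric acid formation. ADA and XDH, the enzymes toward uric acid given below, had intervals that included 0. The shares of all genes were 1.26% and 1.49%, and in the brightest part 47 of 2882 genes were higher and 13 lower. Lists were chosen with earlier results of these data known, so the shares describe the list and do not test it. The list median was 0.09, and 0.08 after quantile normalization. It was 0.06 without HI15 replicate 2 and 0.05 without HI0 replicate 5 and HI15 replicate 5 together. PPAT, which commits phosphoribosyl pyrophosphate to purines, lay at 10.29 to 11.08 (median 10.83) in HI0 and 10.84 to 11.59 (median 11.20) in HI15 (0.43 ± 0.15 (SE), 95% interval 0.12 to 0.73). PAICS, which carries the pathway through 2 middle steps, lay at 10.06 to 10.83 (median 10.50) in HI0 and 10.54 to 11.56 (median 10.92) in HI15 (0.52 ± 0.17 (SE), 95% interval 0.15 to 0.88). GLUL, glutamine synthetase, which supplies the amide nitrogen used by PPAT, lay at 10.87 to 11.46 (median 11.09) in HI0 and 11.34 to 12.07 (median 11.60) in HI15 (0.49 ± 0.18 (SE), 95% interval 0.11 to 0.88). The second GLUL probe set gave 0.44.

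All 6 HI15 arrays lay above the HI0 mean for PPAT, PAICS, GLUL and RIDA, and in each case 1 or more HI15 arrays fell inside the HI0 range. Over the 11 purine synthesis genes, PPAT and PAICS included, the median was 0.09. Toward uric acid, ADA, adenosine deaminase, was at 0.17 ± 0.09 (SE) (95% interval -0.01 to 0.35), and XDH, xanthine dehydrogenase, which makes uric acid itself, lay at 9.46 to 10.83 (median 9.79) in HI0 and 8.92 to 11.09 (median 10.47) in HI15 (0.25 ± 0.32 (SE), 95% interval -0.42 to 0.91). Leaving out 1 array moved XDH between 0.08 (without HI15 replicate 4) and 0.52 (without HI15 replicate 6). PNP, the nucleoside phosphorylase upstream of XDH, was the lower member at -0.30, with a dim probe set at 5.50 to 5.96 (median 5.67) in HI0. PPAT, GLUL, ADA and XDH were chosen after their values were seen. On the array level, the median over the 11 purine synthesis genes lay between 0.03 and 0.24 above the HI0 mean on the 6 HI15 arrays and between -0.08 and 0.08 on the HI0 arrays. For HI7.5 the differences were 0.21 for PPAT, 0.28 for PAICS, 0.15 for GLUL and 0.17 for RIDA, each smaller than in HI15 and measured against the same HI0 arrays.

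Most genes of amino acid breakdown had positive differences, but their size rested on 1 array. Of 74 measured genes 60 were above 0 (81.1%, against 66.3% of all genes of like brightness). Their median was 0.11 on the deposited values and 0.08 after quantile normalization. At an unadjusted p under 0.05, 2 were higher (2.70%) and 1 lower (1.35%), against 1.26% and 1.49% of all genes. The list median was 0.04 without HI0 replicate 5, and it was also 0.04 without that array and HI15 replicate 5 together. The branch for histidine, tyrosine and phenylalanine had all 10 measured members above 0 and a median of 0.18. UROC1, urocanase of histidine breakdown, lay at 8.68 to 9.90 (median 9.46) in HI0 and 9.26 to 10.28 (median 9.98) in HI15 (0.42 ± 0.18 (SE), 95% interval 0.03 to 0.80), while its dimmer probe set gave 0.00. Without HI0 replicate 1 UROC1 was at 0.27. HGD, which opens the tyrosine ring, lay at 10.44 to 11.02 (median 10.62) in HI0 and 10.75 to 11.11 (median 10.83) in HI15 (0.23 ± 0.10 (SE), 95% interval 0.01 to 0.44), with all 6 HI15 arrays above the HI0 mean. HAL, which starts histidine breakdown and was chosen after its values were seen, was at 0.31 ± 0.22 (SE) (95% interval -0.16 to 0.77), and between 0.19 and 0.47 when 1 array was left out (HI15 replicate 4 and HI15 replicate 6).

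By other branches, 20 of 22 genes of glycine, serine, threonine and the branched chain amino acids were above 0 (median 0.11), 8 of 10 of transamination and glutamate (0.13), 10 of 12 of tryptophan and lysine (0.07), 7 of 10 of arginine and ornithine (0.03) and 5 of 10 of the sulphur amino acids (0.01). Lowest of the whole list was GADL1, a decarboxylase of acidic amino acids in the sulphur branch, at 5.20 to 5.67 (median 5.48) in HI0 and 4.91 to 5.32 (median 5.02) in HI15. All 6 HI15 arrays lay below the HI0 mean (-0.40 ± 0.10 (SE), 95% interval -0.62 to -0.18), at a signal among the dimmest of the table. The same HI0 array moved several branches. Without HI0 replicate 5 the median was 0.05 for glycine, serine, threonine and the branched chain amino acids, 0.03 for tryptophan and lysine and 0.08 for transamination and glutamate. Relative to the HI0 mean, the median of the branch for histidine, tyrosine and phenylalanine was -0.34 on HI0 replicate 5, against 0.00 to 0.20 on the other HI0 arrays, and -0.20 on HI15 replicate 6, against 0.17 to 0.39 on the other HI15 arrays. Without HI0 replicate 5 that branch had a median of 0.09, and without HI15 replicate 6 it was 0.26.

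Genes of the response to amino acid shortage had no common direction. The list of shortage sensors and serine synthesis had a median of 0.02 over 19 genes, with 0 at an unadjusted p under 0.05. ATF4, the transcription factor of the shortage response, was at -0.23 ± 0.12 (SE), and its other probe set at -0.08. PSAT1 of serine synthesis was at 0.22 ± 0.12 (SE) and SLC38A2, a transporter that the response switches on, at -0.28 ± 0.15 (SE). The amino acid and peptide transporters had a median of 0.03 over 29 genes, again with 0 at that p in either direction.

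**Figure D4:**
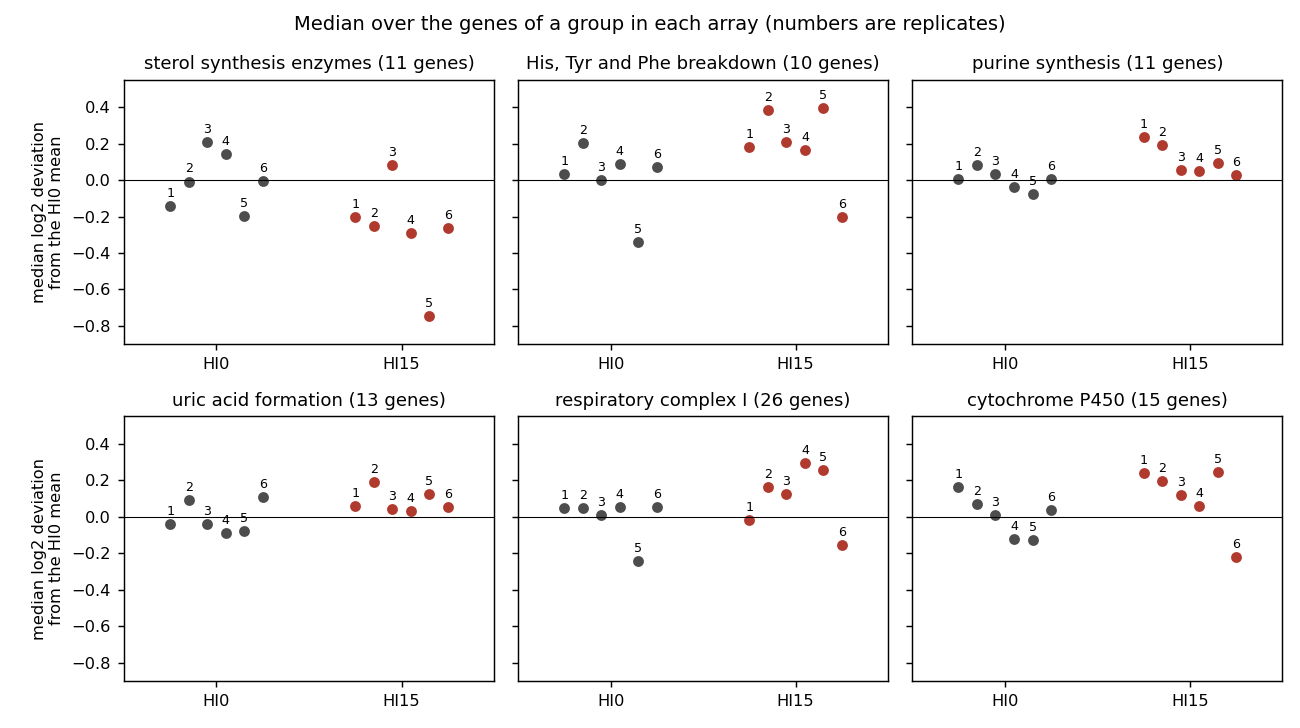
Median log2 deviation from the HI0 mean over the genes of 6 groups on each of the 12 arrays (HI0 dark, HI15 red; numbers are replicates). The sterol enzymes reach -0.75 on HI15 replicate 5, and the amino acid and complex I medians are lowest on HI0 replicate 5 and HI15 replicate 6.

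Oxidative phosphorylation genes differed by small amounts, nearly all with the same sign. Of 49 measured subunits 48 were above 0, where 62.9 to 66.3% of all genes of like brightness were, and the median was 0.11, or 0.08 after quantile normalization. No subunit reached an unadjusted p under 0.05, and all 49 intervals lay within 1.5-fold. Each complex had a positive median, at 0.11 for 26 genes of complex I, 0.17 for 3 of complex II, 0.06 for 5 of complex III, 0.06 for 7 of complex IV and 0.14 for 8 of complex V. The complex I median was -0.25 on HI0 replicate 5, against 0.01 to 0.05 on the other HI0 arrays, and ran from -0.16 (replicate 6) to 0.29 (replicate 4) over the HI15 arrays. Leaving out HI0 replicate 5 took the list median to 0.06, and leaving out HI15 replicate 6 took it to 0.16. Without HI0 replicate 5 and HI15 replicate 5 together the list median was 0.03, that of complex I 0.03 and that of complex IV 0.00. HI15 replicate 6 was also the HI15 array with the highest signals of HBA1, HBAD and COL1A1, given below with the cell markers.

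Protein turnover lists had smaller medians. The proteasome had 25 of 30 genes above 0 (median 0.06, 0.04 after quantile normalization), cytosolic ribosomal proteins 42 of 53 (0.05 and 0.02) and translation factors with tRNA synthetases 39 of 56 (0.04 and 0.01). These counts are 83.3, 79.2 and 69.6% of the lists, against 66.3% of all genes of like brightness. The proteasome median was 0.03 without HI0 replicate 5, and without HI15 replicate 5 the ribosomal protein median was 0.01. In all 3 lists 0 genes reached an unadjusted p under 0.05. Every interval of the 53 ribosomal proteins and of the 30 proteasome genes lay within 1.5-fold. The chaperones of the endoplasmic reticulum (median 0.00 over 29 genes) and the heat shock chaperones (0.01 over 31) gave 0 genes at that p. Plasma proteins such as serpins and clotting factors had a median of 0.03 over 31 genes, all 31 with intervals within 1.5-fold.

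Lipid synthesis as a whole showed no common direction. Fatty acid synthesis and desaturation had a median of 0.02 over 18 genes. At an unadjusted p under 0.05, 2 (11.1%) were higher and 0 lower, against 1.26% and 1.49% of all genes. FASN, the fatty acid synthase (chosen after its values were seen), was at -0.03 ± 0.15 (SE). The 2 higher genes were FADS6, a member of the fatty acid desaturase family, and HACD2, which dehydrates the intermediates of chain elongation. FADS6 lay at 9.71 to 9.97 (median 9.81) in HI0 and 9.98 to 10.33 (median 10.16) in HI15, where the lowest HI15 array just cleared the highest HI0 array (0.35 ± 0.13 (SE), 95% interval 0.09 to 0.62). HACD2 was at 0.20 ± 0.09 (SE) (95% interval 0.01 to 0.39).

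Triglyceride and phospholipid synthesis had a median of 0.05 over 35 genes. Of these, 2 (5.71%) were higher and 0 lower at an unadjusted p under 0.05, against 1.26% and 1.49% of all genes. CERS6, a ceramide synthase with preference for palmitoyl chains, lay at 4.84 to 6.23 (median 5.85) in HI0 and 6.14 to 6.82 (median 6.59) in HI15, a difference of 0.80 ± 0.25 (SE) or 1.75-fold (95% interval 0.29 to 1.31). HI0 replicates 1, 2 and 3 lay between 4.84 and 5.58, below every HI15 array, and the other HI0 arrays lay between 6.12 and 6.23, beside the lowest HI15 array. CDS1, which makes CDP-diacylglycerol, was at 0.32 ± 0.13 (SE) (95% interval 0.06 to 0.59). CHKA, choline kinase, lay at 8.63 to 9.68 (median 9.48) in HI0 and 7.87 to 9.52 (median 8.78) in HI15 (-0.57 ± 0.31 (SE), 95% interval -1.21 to 0.07), and PLIN2, a lipid droplet coat protein chosen after its values were seen, at 12.26 to 12.86 (median 12.56) and 11.05 to 12.87 (median 12.03) (-0.49 ± 0.28 (SE), 95% interval -1.06 to 0.09). Both reached their lowest value on HI15 replicate 4, without which PLIN2 was at -0.28.

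ETNPPL, which breaks down phosphoethanolamine, had one of the 3 differences beyond 1 in size and was chosen after its values were seen. It lay at 7.28 to 9.08 (median 8.10) in HI0 and 7.77 to 10.30 (median 10.02) in HI15, with 4 HI15 arrays between 9.98 and 10.30 and the other HI15 arrays at 8.48 and 7.77. The difference was 1.29 ± 0.49 (SE) or 2.45-fold (95% interval 0.27 to 2.31), and HI7.5 was at 0.84.

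Lipoprotein genes had a median of -0.03 over 19 members, and fatty acid oxidation and ketone body genes 0.05 over 53. They gave 0 and 1 genes at an unadjusted p under 0.05. The 1 gene was ACOT12, an acetyl-CoA thioesterase with a dim signal of 3.91 to 5.20 (median 4.60) in HI0, at -0.35 ± 0.16 (SE); without HI0 replicate 1 it was at -0.23. Within oxidation, 12 of 14 peroxisomal genes (median 0.08) and 12 of 16 mitochondrial genes (0.08) were above 0, or 85.7 and 75.0% against 66.3% of all genes of like brightness. Without HI0 replicate 5 the peroxisomal median was 0.04, the mitochondrial median 0.005 and that of all 53 genes 0.003. Genes of glycolysis, glycogen and glucose output had a median of 0.03 over 59 members, with 1 higher and 0 lower. That 1 was GYG2, a glycogenin that primes glycogen, at 4.73 to 5.22 (median 4.86) in HI0 and 5.11 to 5.88 (median 5.28) in HI15 (0.46 ± 0.14 (SE), 95% interval 0.17 to 0.75). PCK1, the gate of glucose synthesis, ranged over 7.14 to 10.58 (median 9.19) in HI0 and 7.45 to 9.33 (median 8.37) in HI15, too wide to place its difference of -0.55 ± 0.54 (SE), which was -0.23 without HI0 replicate 1 and -0.92 without HI0 replicate 4; the gene was picked once its values were known.

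Among foreign compound genes, a pair of known targets of the aryl hydrocarbon receptor had higher means in HI15. CYP1A1 lay at 7.72 to 8.49 (median 8.33) in HI0 and 8.07 to 9.23 (median 8.78) in HI15 (0.58 ± 0.20 (SE), 95% interval 0.17 to 0.99). CYP1A2 lay at 9.30 to 10.19 (median 9.63) in HI0 and 9.74 to 10.72 (median 10.30) in HI15 (0.62 ± 0.21 (SE), 95% interval 0.18 to 1.07). For CYP1A2, 3 HI15 arrays lay between 10.70 and 10.72, above every HI0 array, and 3 lay inside the HI0 range. The other 7 measured genes of that receptor group ran from -0.20 to 0.17.

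Over the 57 measured genes of foreign compound metabolism, 37 were above 0 (64.9%, close to the 66.3% of all genes of like brightness). At an unadjusted p under 0.05, 3 (5.26%) were higher and 0 lower, against 1.26% and 1.49% of all genes. The median was 0.08 (0.06 after quantile normalization). Without HI0 replicate 5 and HI15 replicate 5 together the median was 0.02. The remaining higher gene was GSTA4, a glutathione transferase chosen after its values were seen, at 0.44 ± 0.20 (SE) (95% interval 0.03 to 0.85). The antioxidant list had a median of 0.08 over 30 genes, with 2 (6.67%) higher and 0 lower at an unadjusted p under 0.05. Its median was 0.05 without HI0 replicate 5 and 0.005 without HI0 replicate 5 and HI15 replicate 5 together. The higher genes were GPX4, which reduces lipid peroxides, at 10.67 to 11.37 (median 10.89) in HI0 and 10.89 to 11.71 (median 11.16) in HI15 (0.32 ± 0.13 (SE), 95% interval 0.06 to 0.58), and TXN2, the mitochondrial thioredoxin, at 0.19 ± 0.09 (SE) (95% interval 0.01 to 0.37). SOD1, the cytosolic superoxide dismutase, stood on the other side at 11.73 to 12.43 (median 12.05) in HI0 and 11.41 to 11.99 (median 11.86) in HI15 (-0.25 ± 0.12 (SE), 95% interval -0.51 to 0.00).

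Around TFRC, few iron genes differed. The list of iron, heme and trace metal genes had a median of 0.02 over 36 members, 1 higher and 1 lower at an unadjusted p under 0.05. The lower one was STEAP2, a metalloreductase, at a dim 4.25 to 4.55 (median 4.48) in HI0 and 4.13 to 4.41 (median 4.20) in HI15 (-0.22 ± 0.08 (SE), 95% interval -0.37 to -0.06). FTH1, the ferritin heavy chain that stores iron (chosen after its values were seen), was at 0.13 ± 0.09 (SE), and SLC40A1, ferroportin, which exports iron, at -0.14 ± 0.09 (SE).

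Interferon-stimulated genes had a median of 0.06 over 35 members. At an unadjusted p under 0.05, 2 (5.71%) were higher and 0 lower, against 1.26% and 1.49% of all genes. The difference of 1 member far exceeded the rest. DDX60, a helicase that helps RNA sensors, lay at 5.84 to 9.01 (median 6.23) in HI0 and 7.28 to 9.65 (median 7.82) in HI15. HI0 replicate 1 at 9.01 lay above 5 of the 6 HI15 arrays, while the other HI0 arrays did not exceed 6.46 and none of the HI15 arrays was below 7.28. The difference was 1.56 ± 0.49 (SE) or 2.96-fold (95% interval 0.54 to 2.59), its second probe set gave 1.09, and HI7.5 was at 0.02. CMPK2, a mitochondrial nucleotide kinase, was at 0.35 ± 0.16 (SE) (95% interval 0.01 to 0.69). Other members of the response, chosen after their values were seen, were TLR3, a sensor of double-stranded RNA, at 0.40, IFIT5, which binds foreign RNA, at 0.41, MX1, an antiviral GTPase, at -0.05 and RSAD2, viperin, at -0.12. TLR3 was at 0.27 and IFIT5 at 0.22 without HI0 replicate 5, and without HI0 replicate 3 IFIT5 was at 0.26. The lowest member was GBP4L, a guanylate binding protein, at -0.22, or -0.11 without HI0 replicate 4. The list median was 0.03 without HI0 replicate 3.

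Acute phase and innate defence genes had a median of 0.01 over 49 members. At an unadjusted p under 0.05, 0 were higher and 2 (4.08%) lower, against 1.26% and 1.49% of all genes. AVD, avidin, a biotin-binding protein of egg white and of inflamed tissue, lay at 6.69 to 7.82 (median 7.42) in HI0 and 6.77 to 6.97 (median 6.93) in HI15, so the HI15 arrays were tightly grouped near the low end of HI0 (-0.49 ± 0.14 (SE), 95% interval -0.79 to -0.20). TLR1B, a receptor of bacterial lipopeptides, was at -0.38 ± 0.15 (SE) (95% interval -0.70 to -0.06), and its other probe set at -0.09. Hydrolases of chitin and other glycans, which could meet the chitin of the insect cuticle, had a median of 0.03 over 14 genes with 0 at that p, and their lowest member was LYG2, a goose-type lysozyme, at -0.32 ± 0.42 (SE).

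Clock and early response genes showed little. The clock list had a median of 0.02 over 13 genes with 1 higher, HLF, a clock output factor of the PAR family, at 8.83 to 9.10 in HI0 and 9.12 to 9.48 (median 9.21) in HI15, without overlap (0.29 ± 0.12 (SE), 95% interval 0.05 to 0.54). CRY1, a repressor of the clock, was at 0.24 ± 0.13 (SE) and PER2, another repressor (chosen after its values were seen), at 0.31 ± 0.20 (SE). Early response genes had a median of -0.02 over 33 members. At an unadjusted p under 0.05, 2 (6.06%) were lower, against 1.49% of all genes. These were EGR4 at -0.31 ± 0.13 (SE) and IER5 at -0.23 ± 0.10 (SE), both with all 6 HI15 arrays below the HI0 mean. Growth, thyroid and insulin-like signals had a median of 0.04 over 23 genes, and 28 mitochondrial carriers a median of 0.04. Among the carriers SLC25A24, which moves ATP-magnesium, was higher at 0.33 ± 0.13 (SE) and SLC25A43, whose cargo is not known, lower at -0.18 ± 0.08 (SE), both at an unadjusted p under 0.05.

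Genes of cell division had a median of -0.04 over 80 members, with 1 higher (BUB3) and 2 lower at an unadjusted p under 0.05. The lower ones were POLE, a replicative DNA polymerase, at -0.23 and BIRC5, survivin of the mitotic complex, at -0.23. The 28 replication genes were at a median of 0.05 and the 52 mitosis genes at -0.06. The same lists had medians of -0.12 and -0.23 in HI7.5. Genes of the extracellular matrix had a median of 0.08 over 39 members, 0 of them at that p, and without HI15 replicate 6 the median was -0.02.

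MicroRNA genes were measured through probe sets that lie mostly in the dimmest part of the table (median level 5.78). Of 392 genes 126 were above 0 and 264 below, where 34.3% of all dim genes were above. At an unadjusted p under 0.05, 4 (1.02%) were higher and 22 (5.61%) lower. Among all 2882 genes of the dimmest part, which holds most of these microRNA genes, 28 were higher and 97 lower at that p. Lower genes thus outnumbered higher ones among dim genes too, but 97 of 2882 is a smaller share than 22 of 392. Over all genes the shares were 1.26% and 1.49%. The median of the microRNA genes was -0.07 on the deposited values, -0.06 after quantile normalization and -0.03 with array spread as a covariate. MIRLET7F2, a member of the let-7 family, lay at 5.88 to 6.24 (median 6.07) in HI0 and 4.77 to 5.85 (median 5.65) in HI15, without overlap (-0.53 ± 0.17 (SE), 95% interval -0.89 to -0.18). MIR193A lay at 5.47 to 6.00 (median 5.63) in HI0 and 5.06 to 5.42 (median 5.34) in HI15, also without overlap (-0.39 ± 0.11 (SE), 95% interval -0.61 to -0.17). MIR1671 was at -0.51 ± 0.16 (SE) and the brighter MIR1780 at -0.29 ± 0.11 (SE), each with all 6 HI15 arrays below the HI0 mean. MIR34B at -0.57 and MIR30D at -0.56 had the lowest values and were chosen after they were seen. The 4 higher ones were MIR215 at 0.54 ± 0.20 (SE), MIR1609-1 at 0.34 and, chosen after they were seen, MIR20A at 0.42 and MIR202 at 0.34. MIR20A was very dim, at 3.66 on HI15 replicate 4 and 2.24 to 2.58 on the other HI15 arrays. Without HI15 replicate 4 its difference was 0.21.

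Markers of other cells were read to describe the tissue, and in bulk liver fewer cells of a type and less RNA per cell cannot be told apart. The 16 hepatocyte markers had a median of 0.00, and the log2 of their summed signal ran from 17.49 to 17.57 in HI0 and from 17.51 to 17.55 in HI15. Stellate cell and fibroblast markers had 10 of 15 above 0 (66.7%, against 62.9% of all genes of like brightness) and a median of 0.12. Their summed levels were 12.44 to 13.08 in HI0 and 12.51 to 13.26 in HI15. In that list PDGFRA, a growth factor receptor, was at 0.36 ± 0.16 (SE) (95% interval 0.03 to 0.70), LUM, lumican, at 0.40 ± 0.21 (SE) and COL1A1, a fibrillar collagen, at 0.17 ± 0.22 (SE). The median without HI15 replicate 6, where COL1A1 was highest at 11.77, was 0.01. Erythrocyte markers had 7 of 11 above 0 (63.6%). Their median level of 6.34 lay near the upper edge of the dimmest part, at 6.37, and CA2 lay in the brightest part. No single share for like brightness therefore fits them, and the parts ran from 34.3 to 66.3% above 0. The median of the erythrocyte markers was 0.14, and 0.03 without HI0 replicate 6. Their summed level ran from 11.27 to 11.77 in HI0 but from 10.99 to 13.05 in HI15. The globins HBA1 and HBAD reached 11.62 and 11.70 on HI15 replicate 6 and 8.77 and 8.77 on replicate 3, outside the HI0 range on either side. Among HI15, HBA1, HBAD and COL1A1 were thus highest on replicate 6. On that array the medians of each oxidative phosphorylation complex and of the histidine, tyrosine and phenylalanine branch were lowest. The part of HBA1, HBAD and COL1A1 in those values was not tested.

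Immune cells differed little. Macrophage markers had a median of 0.02 over 12 genes, which was -0.05 without HI0 replicate 1 and 0.13 without HI0 replicate 4. MRC1, the mannose receptor, was at 0.33 ± 0.16 (SE), and at 0.21 without HI0 replicate 1. Lymphocyte markers had a median of -0.06 over 22 genes, but 0.03 without HI0 replicate 4. Among them 1 was higher at an unadjusted p under 0.05, GZMA, a granule protease, at 0.44 ± 0.21 (SE). Heterophil markers had a median of -0.12 over 4. Of 8 thrombocyte markers 1 was lower, F13A1, a clotting transglutaminase, at 6.49 to 7.14 (median 6.88) in HI0 and 6.07 to 6.79 (median 6.45) in HI15 (-0.37 ± 0.13 (SE), 95% interval -0.65 to -0.09). Endothelium (0.04 over 16), cholangiocytes (0.03 over 9) and adipose tissue (0.00 over 4) gave 0 genes at an unadjusted p under 0.05. Pancreas and gut markers had 3 of 20 above 0 (15.0%) and a median of -0.13 at a dim median level of 5.74. Of all genes in the dimmest part, 34.3% were above 0. The pancreas and gut median was -0.11 after quantile normalization and -0.04 with array spread as a covariate. Skeletal muscle and heart markers, also dim, had 4 of 17 above 0 (23.5%, against the same 34.3%). Their median of -0.08 became -0.03 and 0.01 under these settings. Leaving out HI0 replicate 5 gave medians of -0.06 for pancreas and gut and -0.003 for muscle and heart. No gene of either list reached an unadjusted p under 0.05.

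**Figure D5:**
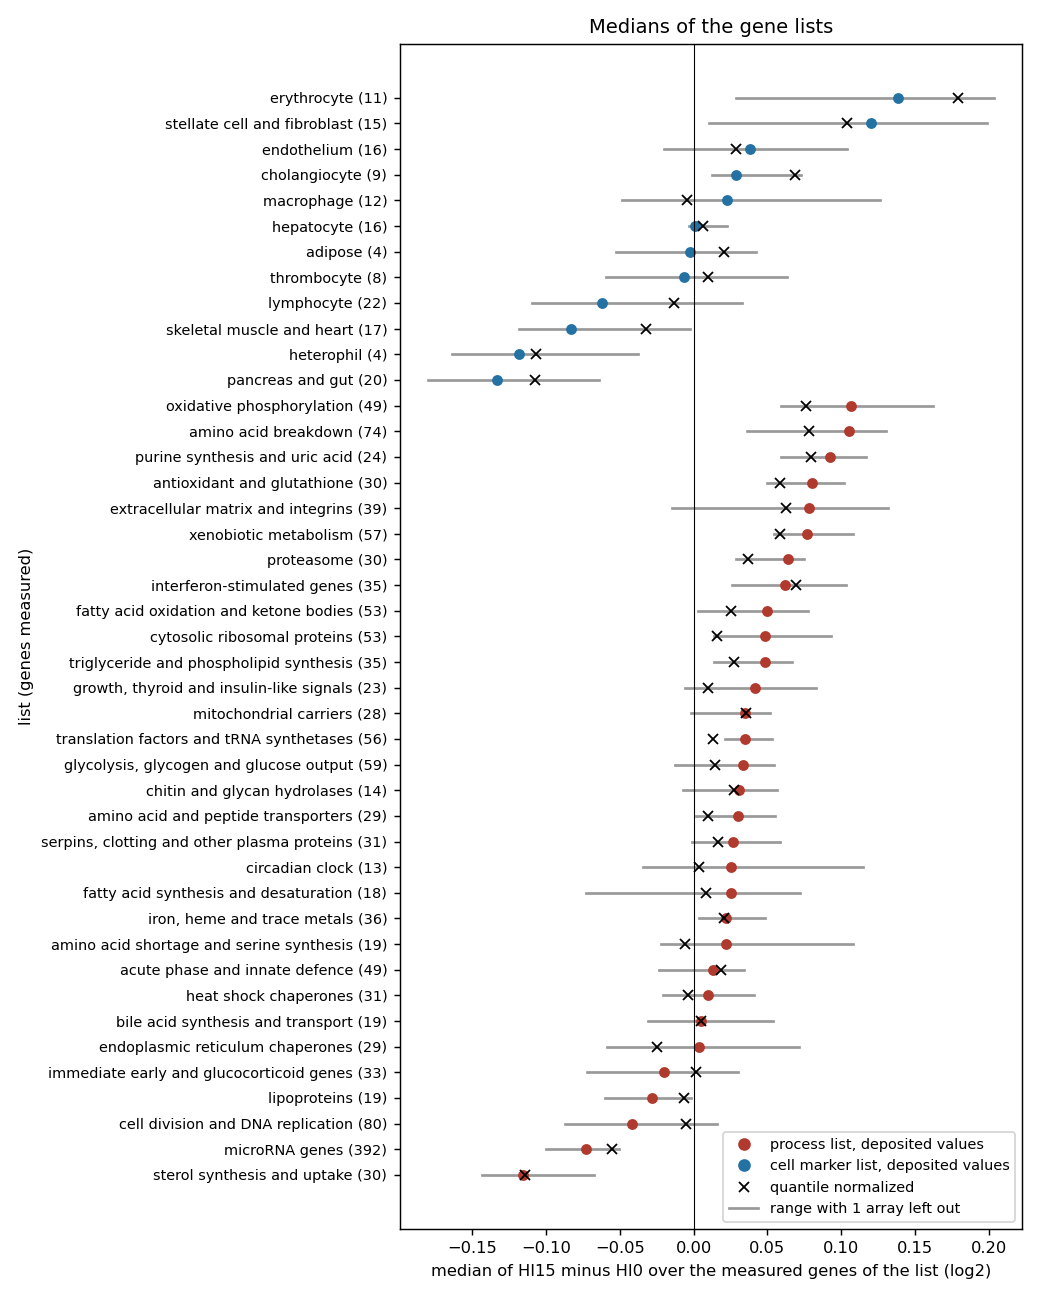
Median of HI15 minus HI0 (log2) over the measured genes of each list, with the number of genes in brackets, for process lists (red) and cell marker lists (blue). Crosses give the median after quantile normalization and grey bars the range when 1 of the 12 arrays is left out; sterol genes lie lowest and oxidative phosphorylation highest among the process lists.

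Some genes varied widely within a diet, so that 6 arrays could not place their difference. CYP2C45 is a chicken foreign compound enzyme also named here among hepatocyte markers. It lay at 11.66 to 12.78 (median 12.30) in HI0 but at 6.84 to 13.39 (median 11.25) in HI15. The SD was 0.36 in HI0 and 2.26 in HI15, and 4 of 6 HI15 arrays lay below the HI0 mean. The difference of -1.35 ± 0.88 (SE) was -0.53 without HI15 replicate 1, which read 6.84. HI7.5, where 1 reading was as low as 6.43, was at -1.82 against the same HI0 arrays. ANGPTL4, an inhibitor of lipoprotein lipase, lay at 8.70 to 11.08 (median 10.99) in HI0 and 8.33 to 11.40 (median 9.85) in HI15 (-0.57 ± 0.65 (SE)). Its low HI0 array was replicate 4 at 8.70. MMP1, a collagenase, differed by -0.57 ± 0.64 (SE), and the sign turned to 0.09 without HI0 replicate 5 at 8.80. BF2, a class I major histocompatibility gene, had arrays from 7.49 to 11.42 in HI15 and 9.36 to 11.35 in HI0 (-0.09 ± 0.69 (SE)). DIO2, which activates thyroid hormone, was at 0.10 ± 0.53 (SE), OVCH1, a serine protease, at 0.14 ± 0.60 (SE) and GIMAP6, a lymphocyte GTPase, at -0.17 ± 0.53 (SE). For each of these 7 genes the 95% interval spanned more than 2 on the log2 scale, and for CYP2C45 it ran from -3.19 to 0.49.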

How the data were processed

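Liver RNA was read on 18 Affymetrix arrays, and the values deposited by the authors are on a log2 scale. They come from the RMA method of Affymetrix Expression Console 1.4, according to the submitters' processing notes. RMA subtracts background, equalises the arrays and condenses the probes of a set to 1 value, which already reduces overall differences in brightness. Values have 2 decimals and come without detection calls, hence dim probe sets stayed in. The number of arrays limits the precision.

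A mean for each diet was fitted to every probe set on the 18 arrays with lmFit and eBayes (limma 3.58.1, R 4.3.3, 15 residual degrees of freedom). HI15 minus HI0 was tested two-sided, with Benjamini-Hochberg adjustment over 18226 probe sets. The procedure was tested on simulated data drawn independently for each probe set. Shifts shared by many genes on an array were not simulated, so the test does not cover them. Intervals are at 95%. A gene was represented by its probe set of highest mean signal, among those that the platform annotation gives 1 symbol.

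Named genes were the 12 smallest p-values each way among genes of at least median brightness, the 6 largest differences each way among genes without overlap, up to 2 each way from each list by p, the 8 most variable genes and the defining cell markers. Others are marked as chosen after their values were seen. Members and lists were chosen with earlier results of these data known, and part of the lists came from earlier work on the same data, so list counts are descriptions. The settings varied were the scaling (quantile, or array medians removed), array weights, a restriction to bright probe sets, a variance trend with a robust prior, the 12 arrays alone, the mean over a gene's probe sets, a replicate block and the omission of each array. Array spread as a covariate and omission of HI0 replicate 5 with HI15 replicate 5 were chosen after seeing the data. Sequences and coordinates were not used here.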

Additional observations from a re-analysis of the deposited data

Results flagged for a closer look

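Of 238 sets of 6 arrays examined for the genes named in the text, 12 held 1 array whose gap to its nearest neighbour, divided by the whole range, was above Dixon's 95% critical value for 6 values. Chance alone gives about 1 such set in 20, and 12 of 238 sets is near that rate. Some of the genes, such as ANGPTL4 and DDX60, were also named because they varied widely within a diet. The sets are therefore listed as values, and how they fall over the arrays was not tested. In 6 of the 12 sets the array was HI0 replicate 4. It was low at 8.70 for ANGPTL4, where the other HI0 arrays lay between 10.63 and 11.08, at 9.88 for INSIG2 (others 10.37 to 10.60) and at 10.67 for LYG2 (others 11.64 to 12.17). It was high at 9.51 for OVCH1 (others 6.23 to 7.12), at 9.39 for GBP4L (others 8.72 to 8.87) and at 8.62 for MIR1780 (others at most 8.18). HI0 replicate 1 was high at 9.01 for DDX60 (others 5.84 to 6.46) and at 9.09 for PCDH7 (others 7.27 to 7.86). HI0 replicate 3 was high at 10.11 for ACAT2 (others 9.59 to 9.78), and HI0 replicate 5 was low at 10.06 for SCAP (others 10.56 to 10.85). In HI15, replicate 4 was high at 3.66 for MIR20A (others 2.24 to 2.58) and replicate 1 was high at 4.41 for STEAP2 (others 4.13 to 4.22).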

How the results depend on the processing

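With limma, 0 probe sets passed at an adjusted p of 0.05 in each alternative run. The counts at an unadjusted p under 0.05 were less stable. The higher count of 245 was 158 among bright probe sets only, which are fewer by construction, and ranged from 203 to 327 when 1 array was left out. The lower count of 328 was 61 among bright probe sets only, 572 with array weights and 164 without HI0 replicate 5 and HI15 replicate 5 together. It ranged from 214 (without HI15 replicate 5) to 547 (without HI0 replicate 6) when 1 array was left out, and was 217 without HI0 replicate 1 and 216 without HI0 replicate 5. The cause of these differences was not tested. A replicate block over the run of title numbers gave 221 higher, 251 lower and 0 called probe sets, and the correlations of deviations within a number (-0.34 to 0.18) did not pair the samples.

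Of 2586 values of named genes under alternatives, 2553 kept their sign, and the lowest adjusted p of any was 0.205. Signs turned for genes near 0 or with wide spread. ALB was at 0.0059 after quantile normalization. FASN was at 0.07, GIMAP6 at 0.074 and MMP1 at 0.24 without HI0 replicate 5 and HI15 replicate 5. With array weights GIMAP6 was at 0.15 and DIO2 at -0.013, and with array spread as a covariate OVCH1 was at -0.017. With 1 array left out, the ranges were -0.35 to 0.44 for BF2, -0.20 to 0.52 for DIO2, -0.13 to 0.042 for FASN, -0.58 to 0.054 for GIMAP6, -0.54 to 0.05 for LYG2, -0.97 to 0.085 for MMP1, -0.12 to 0.01 for MX1 and -0.17 to 0.63 for OVCH1. Leaving out 1 array moved 41 of the 119 named genes by over 1.5 times. Of 43 list medians, 41 moved by over 1.5 times when 1 array was left out, 21 changed sign then and 26 changed sign under some alternative, for causes that were not tested.

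The precision is set by 6 arrays per diet: a gene's 95% interval reached, at the median, 0.248 to either side on the log2 scale.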
